A study of Mus musculus with 12 samples.

Results

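Mouse splenic B cells whose samples are labelled Jmjd2c-depleted were compared between day 3 and day 1 of culture. The comparison uses 4 of the 12 arrays of the series, 2 from day 3 and 2 from day 1, and the log2 difference was taken for every probe set other than the control probe sets, 45037 in all. The day 3 and day 1 cells had the same source: B220-positive spleen cells of C57BL/6 mice with the transgene Tg(IghelMD4)4Ccg, whose B cells carry a receptor for hen egg lysozyme (HEL). They were selected on magnetic beads and cultured in RPMI medium with 10% serum, anti-CD40, IL21 and HEL, together with an RNA interference construct against Jmjd2c. The labels call the construct siJmjd2c in the treatment and a shJmjd2c virus in the source of the RNA, and give no age of the mice. Set beside them are 4 arrays labelled Jmjd2a-depleted and 4 control arrays, also 2 from day 3 and 2 from day 1, from cells with the same transgene, selection and stimuli. Replicates are called biological without naming separate animals or cultures, so p-values measure only the spread between these samples, which may be technical.

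Jmjd2c, now named Kdm4c, encodes a demethylase that removes methyl groups from lysine 9 of histone H3, a mark of silent chromatin, and Jmjd2a (Kdm4a) encodes a close relative. Antibodies against CD40 and interleukin-21 stand in for the help that follicular T cells give, and HEL engages the receptor itself. A resting B cell that receives these signals leaves quiescence, divides, and may enter the germinal centre reaction or become an antibody-secreting plasma cell. Along that way mature B cells lower genes of recirculation, antigen presentation and B cell identity.

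All values are the deposited log2 levels, and the median probe set averaged 5.22. A gene is represented by its brightest probe set of its own, except that the genes with the largest rises, falls and differences of day changes are given by their probe set of largest change. A difference is day 3 minus day 1 on the log2 scale, so that -1 is a 2-fold fall, and it counted as risen or fallen at a limma p adjusted by Benjamini and Hochberg under 0.05 over all 45037 probe sets. Array numbers limit the precision, with 2 in each group. Replicates differed with an SD, pooled over probe sets, of 0.117 on the day 3 arrays and 0.157 on the day 1 arrays of the Jmjd2c label, and 0.259 in the day 3 controls, whose spread enters the shared model.

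The arrays did not sort by day alone. The Jmjd2c day 3 arrays correlated across probe sets at a mean r of 0.9883 with the Jmjd2c day 1 arrays, 0.9964 with the Jmjd2a day 3 arrays, 0.9876 with the day 3 controls and 0.9954 with the day 1 controls. They were thus nearer to the day 1 controls than to the arrays of their own label at day 1, by r as a description. Replicate 2 of day 1 stood above replicate 1 in the mean level of macrophage, neutrophil, dendritic and erythroid markers, and not in that of NK, T cell or stromal markers, and both day 3 control arrays carry the same description. The 18S ribosomal probe sets read 12.1 and 12.25 at day 3 against 12.43 and 11.73 at day 1, and the hybridisation controls 11.09 and 10.92 against 10.6 and 10.77. The 3' minus 5' difference of Actb, a sign of RNA quality, was 0.44 and 0.48 at day 3 against 0.41 and 0.49 at day 1.

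The targeted transcript was measured first, as a check of the label. Kdm4c read 7.81 and 7.78 on the day 3 arrays and 8.02 and 7.98 on the day 1 arrays. Both day 3 values were lower, by -0.21 ± 0.12 (SE, 95% interval -0.47 to 0.05, limma adjusted p = 0.34), which did not pass. The controls read 7.96 and 7.56 at day 3 and 7.78 and 7.84 at day 1, so the Jmjd2c-labelled arrays overlapped them at day 3 and lay above them at day 1. The Jmjd2c day change minus the control day change of Kdm4c was -0.16 (adjusted p = 0.62), and -0.36 (adjusted p = 0.026) without day 3 control replicate 2. Kdm4a read 7.94 and 8 at day 3 against 8.06 and 8.13 at day 1, a difference of -0.13 (-0.32 to 0.06, adjusted p = 0.44). Lower Kdm4c than in controls was thus not measured on either day, and the groups are named by their labels. Whether day or group labels were exchanged between arrays was not tested, and each difference below takes the labels as given.

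Between the days the Jmjd2c-labelled cells lost transcripts of resting, mature B cells, of antigen presentation, of homing and of macrophages, by up to 34.1-fold for Fcer2a, and gained transcripts of dividing cells by smaller steps. Of 45037 probe sets, 3888 (8.63%) passed, 1472 (3.27%) higher and 2416 (5.36%) lower at day 3. The 2 groups did not overlap for 26383 probe sets (58.6%), and a count of genes that do not overlap is read against that share. At least 2-fold, 44 were higher and 672 lower, and at least 4-fold, 3 were higher and 167 lower. With 1 probe set a gene, 11.6% of 18193 genes passed, 4.75% higher and 6.84% lower, and the median difference of all genes was 0.06. The counts of risen and fallen list members below are read beside these shares. Of the calls 37.9% were rises, and 49.3% with quantile normalization. Without 1 array the counts dropped most without day 3 replicate 1, to 301 higher and 1101 lower.

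**Figure D1:**
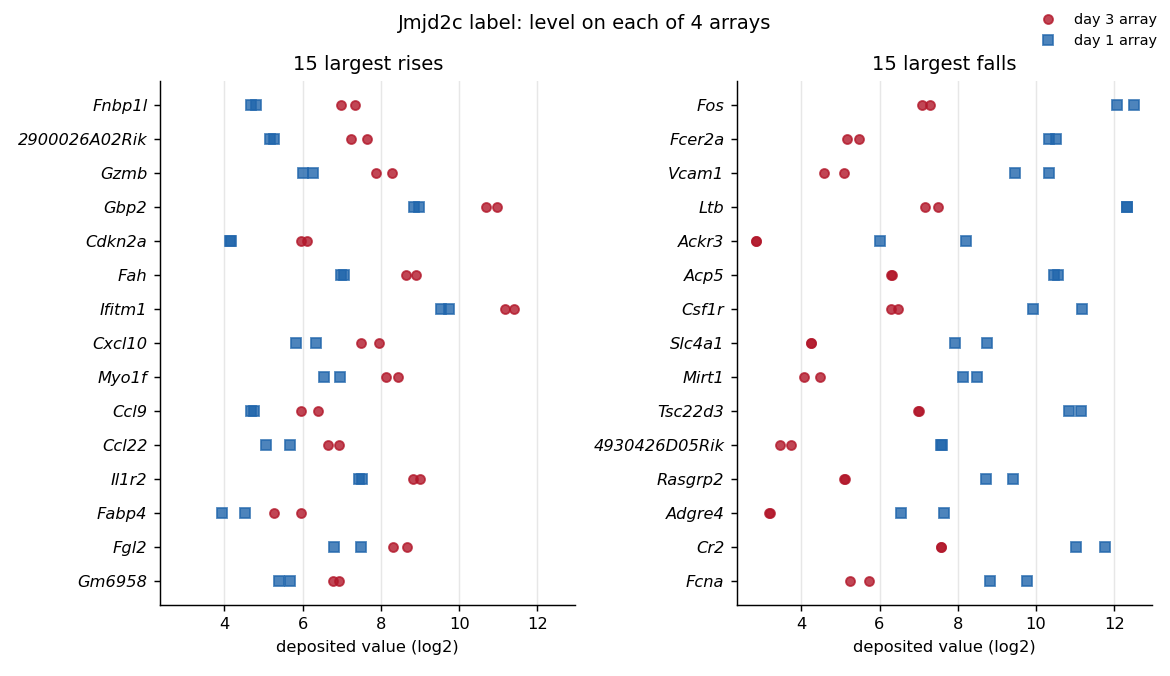
Deposited log2 level (horizontal axis) of the 15 largest rises and the 15 largest falls on each Jmjd2c-labelled array, with day 3 arrays as circles and day 1 arrays as squares. The groups do not overlap for any gene drawn, as the choice of genes required, and Fos, Fcer2a, Vcam1 and Ltb lie farthest apart, by -5.09 to -4.99.

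The falls were led by genes of unlike kinds. Fos, a transcription factor of the immediate early response, read 7.29 and 7.08 at day 3 and 12.07 and 12.49 at day 1, a fall by 5.09 ± 0.16 (SE, limma adjusted p = 8.2e-09). Fcer2a, CD23, a receptor for IgE on mature B cells, read 5.48 and 5.17 at day 3 and 10.5 and 10.34 at day 1, a difference of -5.09 ± 0.21 (adjusted p = 1.1e-07). Ltb, which encodes lymphotoxin beta, read 7.49 and 7.17 at day 3 against 12.31 and 12.33 at day 1, a difference of -4.99 ± 0.22 (adjusted p = 2.3e-07). In each, both day 3 arrays lay below both day 1 arrays, as the choice of the 15 largest falls and 15 largest rises required. This holds wherever 1 of these genes is named below. Vcam1, an adhesion molecule of splenic macrophages and stroma, read 5.09 and 4.59 at day 3 against 9.47 and 10.33 at day 1. Others among the 15 largest falls were Rasgrp2, an activator of Rap1 in lymphocytes (-3.96), Acp5, an acid phosphatase of macrophages and osteoclasts (-4.21), Adgre4 (-3.92) and Fcna, ficolin A (-3.81), both of macrophages, Ackr3, a chemokine scavenger (-4.28), and the transcripts Mirt1 (-4.04) and 4930426D05Rik (-3.99). The day 1 replicates of Ackr3 were 6.02 and 8.22, the widest gap of these genes, against 2.85 and 2.84 at day 3. Of the 15 largest falls 7 had a mean day 3 level under the median probe set, namely Vcam1, Ackr3, Slc4a1, Mirt1, 4930426D05Rik, Rasgrp2 and Adgre4. The deposited values carry no detection call, so these levels are not shown to be above background, and the size and order of these falls are uncertain.

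The rises were smaller. Fnbp1l, which links membrane bending to actin, read 7.34 and 6.98 at day 3 and 4.8 and 4.68 at day 1, a rise of 2.42 ± 0.14 or 5.35-fold (limma adjusted p = 1.3e-06). Gzmb, granzyme B, read 8.29 and 7.88 at day 3 against 6.02 and 6.26 at day 1 (1.94 ± 0.16, adjusted p = 1.4e-05). Gbp2, an interferon-induced GTPase, read 10.96 and 10.69 against 8.85 and 8.98 at day 1 (1.91 ± 0.11, adjusted p = 1.3e-06). Both day 3 arrays exceeded both day 1 arrays for each of them, as their choice among the largest rises required. Cdkn2a, the locus of the p16 and p19 cell-cycle inhibitors, read 5.97 and 6.12 at day 3 against 4.17 and 4.14 at day 1 (1.88 ± 0.27, adjusted p = 0.001). Genes of chemokines were also among the 15, with Cxcl10 at 1.63, Ccl9 at 1.44 and Ccl22 at 1.42. So were Fah, an enzyme of tyrosine breakdown (1.75), Ifitm1 (1.65), the myosin Myo1f (1.54), the decoy receptor Il1r2 (1.42), Fgl2 (1.34), 2900026A02Rik (2.22) and Gm6958 (1.31). In their brightest probe sets Myo1f differed by 1.34 and Fgl2 by 1.04. The day 1 means of Fnbp1l, Cdkn2a, Ccl9 and Fabp4 lay under the median probe set, so the size of their rises is likewise uncertain. The fatty acid carrier Fabp4 (1.38) ended below the threshold without day 1 replicate 1 (1.09, adjusted p = 0.18) or without day 3 replicate 1 (1.04, adjusted p = 0.23).

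Mature B cell identity genes fell together. Of 21 measured members 15 fell past the test, the other 6 did not pass, and the median difference was -0.67, beside 0.06 over all genes. The gene lists here and below were chosen with earlier results of these data known, so their counts and medians are descriptions. Cr2, the complement receptor CD21, read 7.58 and 7.56 at day 3 against 11.01 and 11.77 at day 1, a 14.1-fold fall. Ms4a1, which encodes CD20, read 11.2 and 11.2 at day 3 against 13.09 and 12.94 at day 1 (-1.82 ± 0.1, limma adjusted p = 9.9e-07). Day 3 lay below day 1 on every array for both genes. Cd55, a complement regulator, followed the same course (-3.58 ± 0.16, adjusted p = 2.4e-07). The members that did not pass included the transcription factors Pax5, at 6.91 and 7.16 on day 3 and 7.1 and 7.01 on day 1, and Bach2, at 11.42 and 11.46 on day 3 and 11.48 and 11.41 on day 1. The list's mean level was 9.85 and 9.83 at day 3, against 10.97 and 11.01 at day 1. Leaving out 1 of the 4 arrays gave 10 to 12 fallen members.

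Of the B cell receptor and its signalling genes 9 of 16 fell, with a median of -0.33. Cd79b, a signalling chain of the receptor, read 11.51 and 11.42 at day 3 against 12.91 and 12.96 at day 1 (-1.47 ± 0.1, limma adjusted p = 2.8e-06). Its partner Cd79a differed by -1.45 ± 0.17, the kinase Prkcb by -0.7 ± 0.1 and the adaptor Blnk by -0.31 ± 0.05 (largest adjusted p = 0.0024). The number of fallen members was 5 without day 1 replicate 2 or without day 3 replicate 2. The 6 measured immunoglobulin genes had a median of -0.08 and none passed by limma. Ighm, the mu heavy chain, differed by -0.12 (unadjusted p = 0.015, adjusted p = 0.11) in its brightest probe set, and its other probe sets disagreed, from -0.45 (adjusted p = 0.00086) to 0.73 (adjusted p = 0.036).

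Genes of MHC class II presentation, which load and display peptides to helper T cells, all fell. This held for 9 of 9 measured members, with a median of -0.83. H2-Oa, a modulator of peptide loading, read 7.95 and 8 at day 3 against 10.32 and 11.16 at day 1 (-2.77 ± 0.19, limma adjusted p = 4.9e-06). Its partner H2-Ob read 8.86 and 8.77 at day 3 against 11.34 and 11.27 at day 1 (-2.5 ± 0.13, adjusted p = 7.6e-07). The classical chains stood near the top of the scale and moved less, with H2-Eb1 at 12.44 and 12.43 on day 3 against 12.97 and 13.16 on day 1 (-0.63 ± 0.06) and H2-Aa at 13.35 and 13.37 against 13.83 and 13.82 (-0.46 ± 0.03). The day 3 and day 1 arrays did not overlap in any of the 4 genes. Leaving out 1 array gave 8 or 9 fallen members.

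Promoters of this class are known for the Y box, which binds NF-Y. The 250 bases before the start are shown for 3 members that fell and carry it, from the RefSeq promoter table of GRCm38.p6, each 5' to 3' along the gene's strand, with the Y box letters CTGATTGG in capitals. The letters were searched on both strands and contain ATTGG, so that each match is also a match of CCAAT on the other strand.
H2-Oa, chr17:34092129-34092378, plus strand: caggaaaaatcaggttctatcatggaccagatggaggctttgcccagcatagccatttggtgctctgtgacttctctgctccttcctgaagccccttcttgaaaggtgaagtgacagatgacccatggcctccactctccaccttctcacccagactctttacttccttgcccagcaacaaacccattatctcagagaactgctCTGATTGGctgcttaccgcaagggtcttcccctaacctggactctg
H2-Eb1, chr17:34305617-34305866, plus strand: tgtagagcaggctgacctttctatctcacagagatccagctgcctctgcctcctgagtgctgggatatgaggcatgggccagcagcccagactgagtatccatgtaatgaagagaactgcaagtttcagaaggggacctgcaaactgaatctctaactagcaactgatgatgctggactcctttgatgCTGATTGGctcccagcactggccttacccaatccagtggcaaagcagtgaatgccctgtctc
H2-Aa, chr17:34287824-34288073, minus strand: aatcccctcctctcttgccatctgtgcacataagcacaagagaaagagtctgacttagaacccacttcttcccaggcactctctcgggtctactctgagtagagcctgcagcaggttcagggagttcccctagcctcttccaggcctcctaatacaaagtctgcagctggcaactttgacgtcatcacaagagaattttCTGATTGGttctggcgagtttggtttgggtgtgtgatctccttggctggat
The letters lie 46 to 39 bases before the start in H2-Oa, 62 to 55 in H2-Eb1 and 51 to 44 in H2-Aa. Of the list's 8 promoter windows, which cover 7 genes, 3 hold them (37.5%), beside 3.8% of all 32851 windows. These are matches of letters and not a measure of binding.

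**Figure D2:**
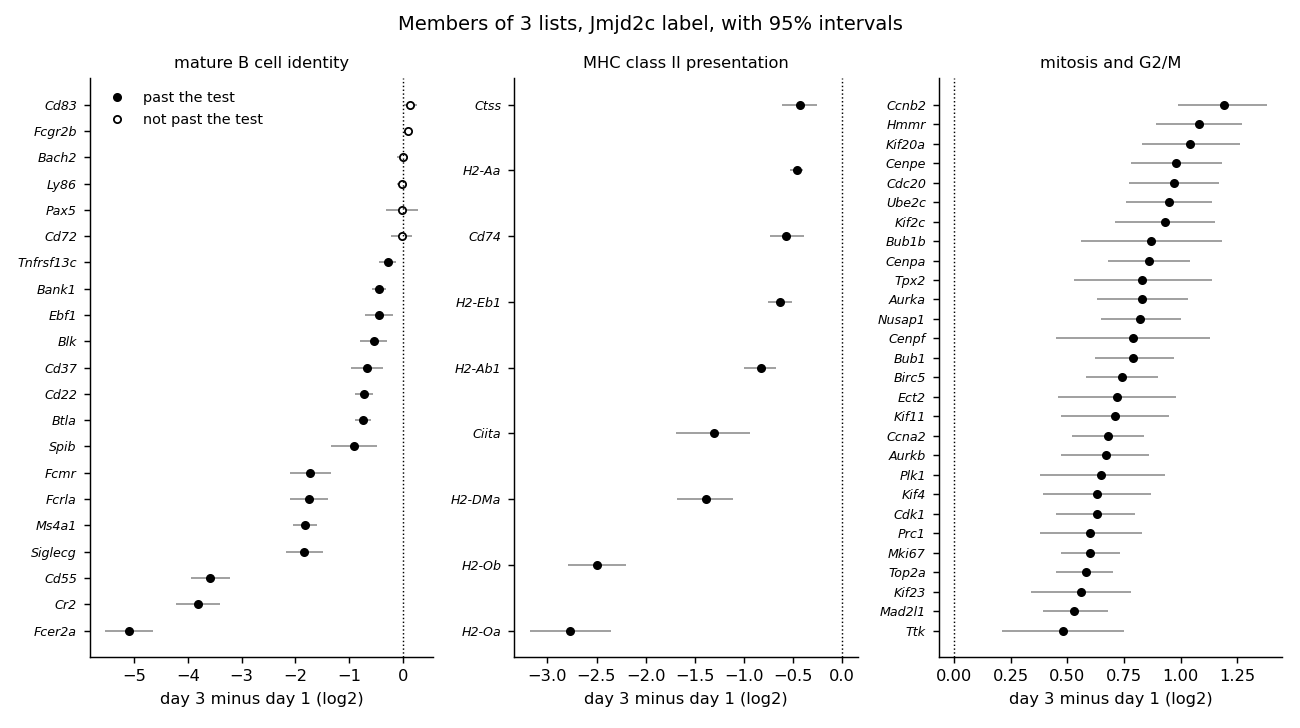
Difference between day 3 and day 1 (log2, horizontal axis) of each measured member of 3 gene lists in Jmjd2c-labelled cells, with 95% intervals of the limma model and filled points for members past the test. Of the mature B cell identity list 15 of 21 lie below 0 past the test, all 9 MHC class II genes lie below 0, and all 28 mitotic genes lie above 0.

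Genes of homing and recirculation fell too. Of 16 measured chemokine receptor and homing genes 12 fell and 2 rose, with a median of -1.12. S1pr1, the receptor by which lymphocytes leave lymphoid organs, read 5.87 and 5.85 at day 3 against 8.54 and 9.54 at day 1 (-3.18 ± 0.26, limma adjusted p = 1.4e-05). Cnr2, a cannabinoid receptor that helps retain marginal zone B cells, differed by -3.15 ± 0.2, the integrin chain Itga4 by -2.95 ± 0.14 and the follicle-homing receptor Cxcr5 by -1.18 ± 0.09 (largest adjusted p = 9.2e-06). The 2 that rose were Cxcr3 (1.09) and Itgb1 (0.42), and without either day 3 array 1 of them passed.

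Quiescence genes and kinase inhibitors behaved likewise, and 12 of 20 fell, with a median of -0.86. Tsc22d3, the glucocorticoid-induced leucine zipper, read 6.97 and 7.01 at day 3 against 11.15 and 10.85 at day 1 (-4.01 ± 0.2, limma adjusted p = 4.7e-07). Klf2, a factor that keeps lymphocytes quiescent, read 7.37 and 7.08 at day 3 against 11.09 and 10.94 at day 1 (-3.79 ± 0.27, adjusted p = 6e-06). Tsc22d3 was 16.1-fold and Klf2 13.8-fold lower on the day 3 arrays, without overlap. Txnip, an inhibitor of glucose uptake, differed by -1.81 ± 0.15, and Btg1, an antiproliferative factor, by -0.59 ± 0.05. Cdkn1b, which encodes the kinase inhibitor p27, read 8.62 and 8.69 at day 3 against 9.45 and 9.4 at day 1 (-0.77 ± 0.15, adjusted p = 0.0069), and the call ended without day 3 replicate 1 (-0.73, adjusted p = 0.078) or 2 (-0.8, adjusted p = 0.052). Cdkn2c, which encodes p18, differed by 0.33 and did not pass (adjusted p = 0.18).

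Immediate early genes, which respond within minutes to stimulation and to handling, also fell. Of 23 members 13 fell and 1, Egr3, rose (0.33, limma adjusted p = 0.042), with a median of -0.58. Beside Fos, its relative Fosb read 3.69 and 3.43 at day 3 against 6.36 and 7.15 at day 1 (-3.19 ± 0.22, adjusted p = 5e-06). The phosphatase Dusp1 read 8.23 and 8.26 at day 3 against 10.23 and 10.92 at day 1 (-2.33 ± 0.17), and the factor Klf4 5.72 and 5.47 against 8.43 and 8.87 (-3.06 ± 0.23). All 4 were lower on each day 3 array. Members such as Junb (-0.05, adjusted p = 0.78), Egr1 (-0.12, adjusted p = 0.73) and Egr2 (0.19, adjusted p = 0.21) did not pass. Egr3 was no longer past the test without day 1 replicate 1 or without either day 3 array.

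Many genes of this class answer to CREB, which binds letters TGACG. The window of Fos, the member of this list with the smallest p, is shown with these letters in capitals.
Fos, chr12:85473640-85473889, plus strand: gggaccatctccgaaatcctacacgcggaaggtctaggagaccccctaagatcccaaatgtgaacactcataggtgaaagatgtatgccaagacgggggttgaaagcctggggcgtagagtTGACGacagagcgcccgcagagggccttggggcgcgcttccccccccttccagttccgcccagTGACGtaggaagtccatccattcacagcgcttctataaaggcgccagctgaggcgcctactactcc
The letters stand at 129 to 125 and at 66 to 62 bases before the start. Of the list's 22 windows, which cover 18 genes, 12 hold TGACG on either strand (54.5%), beside 17.8% of all windows. The longer TGACGTCA, which contains TGACG, is in 2 of the 22 (9.1%) and in 1.5% of all windows.

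Genes of mitosis rose as a block. All 28 measured members of the mitosis and G2/M list passed, with a median of 0.76 and a range from 0.48 for Ttk to 1.19 for Ccnb2. Ccnb2, a B-type cyclin, read 9.52 and 9.35 at day 3 against 8.25 and 8.24 at day 1 (1.19 ± 0.09, limma adjusted p = 8.7e-06). Hmmr, a spindle protein, read 8.75 and 8.58 at day 3 against 7.56 and 7.61 at day 1 (1.08 ± 0.09), and Ube2c, which works with the anaphase-promoting complex, 11.06 and 10.85 against 10.05 and 9.97 (0.95 ± 0.09). Both day 3 arrays lay above both day 1 arrays for each, and the rise of Ccnb2 was 2.27-fold. The kinesin Cenpe differed by 0.98 ± 0.09 and the proliferation marker Mki67 by 0.6 ± 0.06 (largest adjusted p = 5.9e-05). Cdkn3, a phosphatase of cyclin-dependent kinases, read 7.76 and 7.53 against 6.56 and 6.57 (1.08 ± 0.11, adjusted p = 7.8e-05). Leaving out 1 array left 22 to 27 members past the test, and only 3 cleared a floor of 1.5-fold.

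Promoters of mitotic genes are known for repeated CCAAT boxes, which NF-Y binds. The windows of the 2 members of smallest p are shown with CCAAT, or ATTGG where it lies on the other strand, in capitals.
Ccnb2, chr9:70421555-70421804, minus strand: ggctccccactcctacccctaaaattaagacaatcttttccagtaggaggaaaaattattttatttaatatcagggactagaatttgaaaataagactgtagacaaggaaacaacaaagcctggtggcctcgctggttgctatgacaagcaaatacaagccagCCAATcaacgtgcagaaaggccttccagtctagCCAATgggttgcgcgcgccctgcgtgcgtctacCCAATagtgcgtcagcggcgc
Hmmr, chr11:40733438-40733687, minus strand: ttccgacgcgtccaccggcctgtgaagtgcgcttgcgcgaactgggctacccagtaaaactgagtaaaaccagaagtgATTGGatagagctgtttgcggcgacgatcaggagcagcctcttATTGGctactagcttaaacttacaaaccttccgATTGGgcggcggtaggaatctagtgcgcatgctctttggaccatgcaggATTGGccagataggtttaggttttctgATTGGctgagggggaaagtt
Ccnb2 holds 3 matches and Hmmr 5. Of 27 windows of 25 list members, 23 hold CCAAT on either strand (85.2%), beside 33.8% of all 32851 windows. The letters TTTGAA of the cell-cycle homology region are in 11 of the 27 (40.7%), beside 16% of all, and neither these letters nor CCAAT contain the other. The Y box letters CTGATTGG, which contain a CCAAT match, are in 8 (29.6%).

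Genes of DNA replication rose less. Of 29 measured members 18 rose, with a median of 0.28. Rrm2 and Rrm1, subunits of ribonucleotide reductase, rose by 0.42 ± 0.05 and 0.43 ± 0.06, the polymerase Pole by 0.54 ± 0.08 and Tipin, of the replication fork, by 0.33 ± 0.05 (largest limma adjusted p = 0.0013). Rrm2 read 11.34 and 11.33 at day 3 against 10.93 and 10.9 at day 1, without overlap. Leaving out 1 array gave 6 to 11 risen members, 11 and 7 without day 1 replicate 1 or 2 and 7 and 6 without day 3 replicate 1 or 2.

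Biosynthetic genes moved up by similarly small steps. In cholesterol synthesis and uptake 11 of 15 rose, with a median of 0.3, led in p by the synthase Hmgcs1 (0.28 ± 0.04, limma adjusted p = 0.001) and Fdft1, squalene synthase (0.38 ± 0.06, adjusted p = 0.0016). In glycolysis 6 of 12 rose (median 0.17), among them Tpi1 (0.27), Pgam1 (0.22), Pgk1 (0.16) and hexokinase Hk2 (0.33), and of 22 oxidative phosphorylation genes 5 rose (median 0.1), among them Atp5g1 (0.23). Of 27 Myc targets and ribosome biogenesis genes 9 rose and 1 fell, with a median of 0.16. The one that fell was Myc itself, at 10.12 and 10.15 on day 3 against 10.58 and 10.88 on day 1 (-0.59 ± 0.1, adjusted p = 0.0025), while the nucleolar genes Npm1 (0.19), Nop16 (0.33) and Rrs1 (0.38) rose. Risen members numbered 2 to 8 in cholesterol synthesis, 0 to 3 in glycolysis, 0 to 3 in oxidative phosphorylation and 0 to 4 among Myc targets when 1 array was left out. The lowest counts came without day 3 replicate 2, and in oxidative phosphorylation also without day 3 replicate 1. Among Myc targets the number was 0 without either day 3 array, 4 and 2 without day 1 replicate 1 or 2, and 17 in the fit without day 3 control replicate 2.

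**Figure D3:**
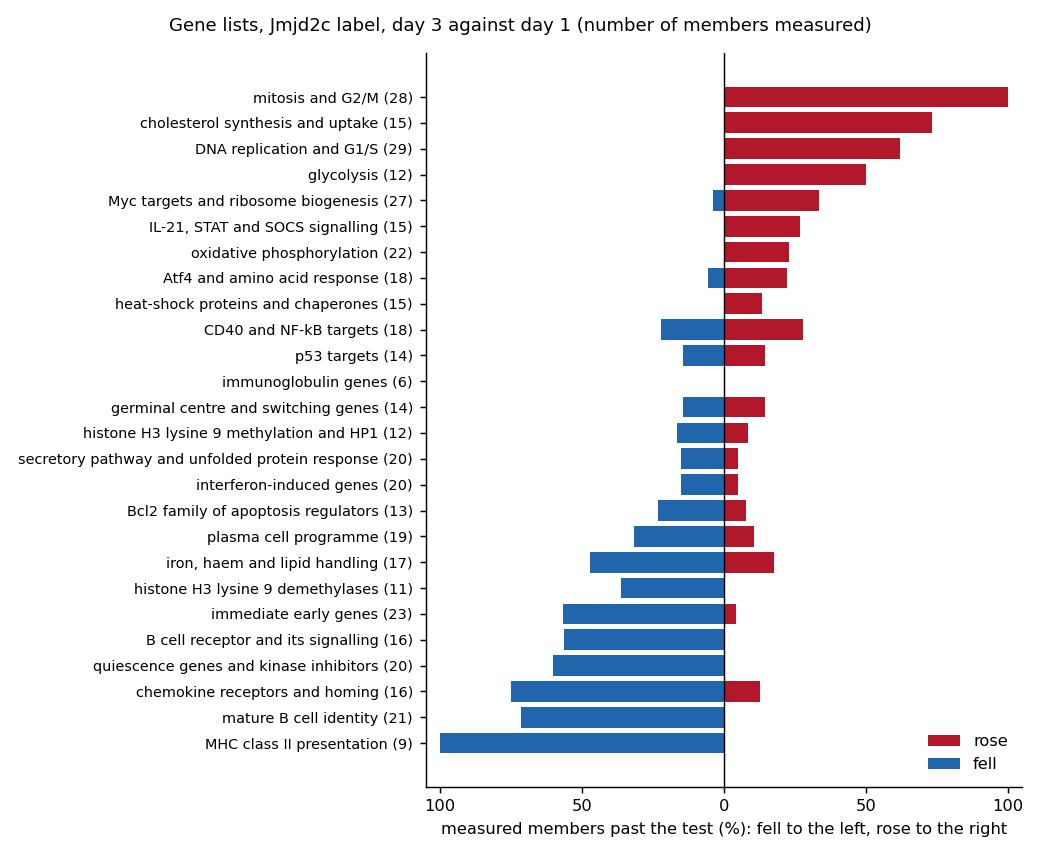
Share of the measured members (horizontal axis, percent) of 26 gene programmes that rose, to the right, or fell, to the left, past the test in Jmjd2c-labelled cells, with the number measured in brackets. All 28 mitotic genes rose and all 9 MHC class II genes fell. With 1 probe set a gene, as drawn, 4.75% of 18193 genes rose and 6.84% fell.

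Genes of the plasma cell fate moved in different directions. Irf4, which promotes that fate, read 9.15 and 9.2 at day 3 against 9.56 and 9.74 at day 1 (-0.47 ± 0.1, limma adjusted p = 0.013), and Jchain, the joining chain of secreted antibody, 11.75 and 11.63 against 11.95 and 12.55 (-0.56 ± 0.15, adjusted p = 0.043). Sdc1, the surface marker CD138, read 10.44 and 10.46 at day 3 against 10.01 and 10.14 at day 1 (0.37 ± 0.09, adjusted p = 0.021). The groups of these 3 genes did not overlap, but each call ended when an array was left out. Irf4 was -0.38 without day 1 replicate 2 (adjusted p = 0.12), -0.44 and -0.49 without day 3 replicate 1 or 2. Jchain was -0.26 without day 1 replicate 2 (adjusted p = 0.29) and -0.86 without day 1 replicate 1 (adjusted p = 0.0014), and Sdc1 was 0.31 without day 1 replicate 1 (adjusted p = 0.15). Of 19 members of the plasma cell programme 2 rose and 6 fell, with a median of -0.16. The fallen members numbered 2 without day 1 replicate 2, 1 without day 3 replicate 1 and 2 without day 3 replicate 2, and no member rose without day 1 replicate 1 or either day 3 array. Those of smallest p were the survival receptor Tnfrsf17, BCMA (-0.89), Cd93 (-1.37) and the glycoprotein-clearing factor Edem1 (0.31). Tnfrsf17 averaged 3.85 at day 3 and 4.74 at day 1, both under the median probe set, so it is not shown to be above background. The other probe sets of Cd93 differed by -1.14 to 0.04 and did not pass.

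Other regulators of that fate did not pass. Prdm1, which encodes Blimp-1, read 7.41 and 7.4 at day 3 against 7.19 and 7.25 at day 1, which differ by 0.19 (95% interval -0.15 to 0.52, limma adjusted p = 0.54). Xbp1, the factor of the secretory response, differed by 0.05 (-0.07 to 0.17, adjusted p = 0.68), and Bcl6, of the germinal centre, by -0.29 (-0.49 to -0.09, adjusted p = 0.074). Bcl6 passed under 7 of 17 alternatives, at an adjusted p from 0.0037 to 0.41 over all 17 but the 1.5-fold floor. The day 3 and day 1 arrays of these 3 genes overlapped for Xbp1 alone. Ccnd2, a D cyclin, differed by 0.18 (adjusted p = 0.069, past the test under 7 of 17 alternatives), Wdr5, a subunit of histone H3 lysine 4 methyltransferases, by 0.12 (adjusted p = 0.46) and Nfkbia, an NF-kB inhibitor, by 0.02 (adjusted p = 0.76). The other probe sets of Ccnd2 differed by 0.14 to 0.44, and those at 0.44, 0.3 and 0.3 passed (largest adjusted p = 0.029). Of the other Nfkbia probe sets, the one at 0.17 passed (adjusted p = 0.043). Of 20 secretory pathway genes 1 rose (Canx, 0.17) and 3 fell (Pdia4 at -0.6, Dnajb9 at -0.74 and Syvn1 at -0.21), with a median of 0.04, and 1 fell without day 1 replicate 2 or day 3 replicate 2. Over all genes 4.75% rose and 6.84% fell, so the 1 that rose is near that share. Canx did not pass without day 1 replicate 1 or either day 3 array. Of 14 germinal centre and switching genes 2 rose, the repair genes Exo1 (0.51) and Ung (0.35), and 2 fell, Neil1 (-0.67) and Mef2c (-0.25), with a median of 0.15. Each of these 4 calls ended without at least 3 of the 4 arrays in turn.

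The genes that answer to the stimuli split. Of 15 IL-21, STAT and SOCS genes 4 rose, with a median of 0.2: Socs2 (0.87 ± 0.13, limma adjusted p = 0.001), Batf (0.34), Socs3 (0.22) and the receptor Il21r (0.26). Without 1 array 1 or 2 of them passed. Of 18 CD40 and NF-kB targets 5 rose and 4 fell, with a median of -0.1. Ccl22, a chemokine that attracts T cells, read 6.92 and 6.66 at day 3 against 5.06 and 5.67 at day 1, while Lta, the partner of Ltb in the lymphotoxin complex, read 5.12 and 5.14 against 7.08 and 6.97 (-1.9 ± 0.18, adjusted p = 5e-05) and Birc3, an apoptosis inhibitor, 10.98 and 10.91 against 11.64 and 11.59 (-0.67 ± 0.06). None of these 3 genes overlapped between the days. Without day 3 replicate 1 or 2 the risen targets numbered 2 and 3.

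Survival, stress and interferon genes moved singly. Over all genes 4.75% rose and 6.84% fell, so 1 risen gene of 20 is near that share and says little of the list. Of 13 genes of the Bcl2 family the pro-apoptotic Bcl2l11, which encodes Bim, rose and read 10.69 and 10.55 on day 3 against 9.82 and 9.67 on day 1 (0.87 ± 0.11, limma adjusted p = 0.0003). Mcl1 (-0.34), Bcl2 (-0.38) and Bmf (-1.5) fell, and Bmf was -0.94 without day 1 replicate 1 and did not pass (adjusted p = 0.18). The other 9 members did not pass, and the median was 0.14. Of 14 p53 targets 2 fell, Plk2 (-1.83) and Trp53inp1 (-1.08), and 2 rose, Ccng1 (0.32) and Zmat3 (0.5). Of 20 interferon-induced genes Gbp2 rose and Rsad2 (-1.11), Irf1 (-0.48) and Ddx58 (-0.54) fell, with a median of 0.01. Of 18 genes of Atf4 and the amino acid response 4 rose, among them Psat1 (0.4), Slc7a5 (0.35) and Asns (0.47), and Atf4 itself fell (-0.24), but not without day 1 replicate 1 or either day 3 array, and its dimmer probe sets differed by 0.17 and 0.19 and did not pass. Without 1 array the interferon-induced genes that fell numbered 1 or 2, the Atf4 genes that rose 1 or 2, the p53 targets that rose 0 to 2 and the Bcl2 family genes that fell 1 to 3, with the low values without day 3 replicate 2 except for the p53 targets, without day 3 replicate 1. Of 15 heat-shock proteins Hsp90aa1 and Hspd1 rose by 0.15 each, and neither passed without day 1 replicate 2 or either day 3 array.

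Among the enzymes of the mark that Jmjd2c removes, 4 of 11 lysine 9 demethylases fell, with a median of -0.2. Kdm7a read 7.27 and 7.26 at day 3 against 9.07 and 8.86 at day 1 (-1.7 ± 0.17 or 3.25-fold, limma adjusted p = 8.2e-05). Jmjd1c (-0.48 ± 0.08), Kdm3b (-0.45 ± 0.08) and Kdm3a (-0.48 ± 0.12) were the others (largest adjusted p = 0.026), each without overlap between the days. The call of Kdm3a ended without any 1 of the 4 arrays, and that of Kdm3b without day 3 replicate 2. Of 12 genes of lysine 9 methylation and HP1, Atf7ip (-0.72), a cofactor of the methyltransferase Setdb1, and Setdb2 (-0.38) fell and the DNA methyltransferase Dnmt1 (0.28) rose. The calls of Setdb2 and Dnmt1 ended without at least 3 of the 4 arrays in turn.

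Macrophage markers moved in the same direction as the mature B cell genes, and markers of other spleen cells did so in part. Of 18 macrophage and monocyte markers 11 fell, with a median of -2.04. Csf1r, the macrophage growth factor receptor, read 6.48 and 6.29 at day 3 against 9.91 and 11.18 at day 1 (-4.16 ± 0.29, limma adjusted p = 5.4e-06), and the complement chain C1qa read 6.14 and 5.59 against 8.53 and 9.8 (-3.3 ± 0.31). Replicate 2 of day 1 was the highest array in each, and both day 3 arrays were lowest. The mean level of the 18 markers was 5.56 and 5.54 at day 3 against 6.96 and 7.89 at day 1, and 5 and 5.01 in the day 1 controls. Cd68 (-0.5), Lyz2 (-0.82), Itgam (-0.08), Fcgr1 (0.01) and Siglec1 (0.31) were among the 7 that did not pass.

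The neutrophil markers had a median of -1.79 and rested on 1 array. Their mean level was 4.79 and 4.68 at day 3, against 5.01 and 7.44 at day 1, and none of the 9 passed by limma. S100a9 differed by -3.06 (adjusted p = 0.21) and Ngp by -2.3 (adjusted p = 0.17). Of 8 NK cell markers Klrd1 (-2.27), Klra8 (-1.68) and Ncr1 (-0.91) fell and Gzmb rose, Ncr1 losing its call without day 1 replicate 1 or either day 3 array, and the mean level was 6.22 and 6.03 at day 3 against 6.77 and 6.67 at day 1. Of 11 T cell markers Cd2 (-1.52), Cd8b1 (-0.84) and Cd3d (-0.7) fell, and 1 of them passed without day 1 replicate 1 or either day 3 array. Cd2 averaged 8.51 at day 3 and 10.03 at day 1, far above Cd3d at 5.98 and 6.69, and whether Cd2 came from T cells was not tested. Ncr1 averaged 4.09 at day 3 and 5 at day 1, and Cd8b1 3.98 and 4.83. These levels lie under the median probe set, so neither gene is shown to be above background. The red cell genes Slc4a1 (-4.08) and Alas2 (-1.86) fell among 8 erythroid and platelet markers, Ccr9 (-1.05) and Siglech (-0.82) among 8 dendritic cell markers, and Pecam1 (-2.59) alone among 8 stromal markers. The other 6 dendritic cell markers had positive differences, none past the test, with a median of 0.07 over the list, and 4 of the 8 stromal markers did, with a median of 0.01. Of 17 genes of iron, haem and lipid handling, many of them used by macrophages, 8 fell and 3 rose, with a median of -0.44. Hpgd, which inactivates prostaglandins, read 3.71 and 3.71 at day 3 against 7.26 and 7.64 at day 1, and the iron exporter Slc40a1 6.35 and 6.16 against 8.98 and 10.14. Without day 1 replicate 2 or either day 3 array 5 of them fell, and without day 1 replicate 1 or day 3 replicate 1 1 rose. Abca1, a cholesterol exporter, differed by -2.59 and the fatty acid carrier Fabp5 by 1.29. In these bulk samples fewer cells of a type and less RNA per cell cannot be told apart, and the part of other cells in the fall of the B cell, homing and immediate early genes was not tested. Without day 1 replicate 2, 12 identity genes, 9 MHC class II genes and 9 immediate early genes fell and 26 mitotic genes rose.

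**Figure D4:**
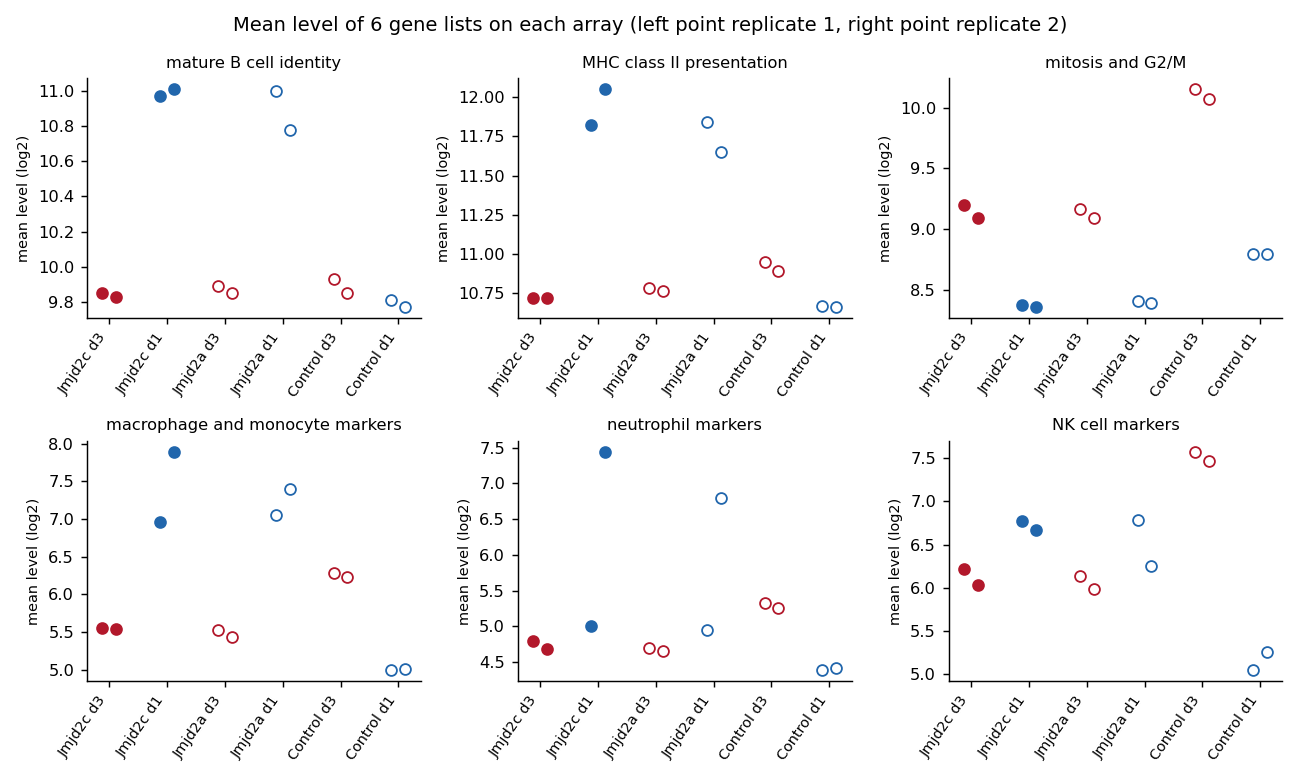
Mean deposited log2 level (vertical axis, scaled per panel) of 6 gene lists on each of the 12 arrays, with filled points for the Jmjd2c label, red for day 3 and blue for day 1. The Jmjd2c day 3 arrays lie at 9.85 and 9.83 for mature B cell identity, against 10.97 and 11.01 at day 1, and the macrophage and neutrophil panels show day 1 replicate 2 above replicate 1.

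The arrays labelled Jmjd2a-depleted moved in the same directions between the days. Of 45037 probe sets 0 (0.0%) passed by limma for the Jmjd2c day change minus the Jmjd2a day change. At an unadjusted p under 0.05 there were 1138 (2.53%), fewer than evenly spread p-values would give at that threshold. The differences per probe set correlated at an r of 0.826 over 45037 probe sets, a description of arrays that share no sample. Replicate 2 of day 1 was the higher one in neutrophil markers under both labels, at 7.44 with Jmjd2c and 6.79 with Jmjd2a, and the replicate differences of these 2 groups correlated at an r of 0.392. Of the 1472 probe sets that rose with Jmjd2c, 1417 (96.3%) had the same sign with Jmjd2a and 741 rose past the test, and of the 2416 that fell, 2403 (99.5%) had the same sign and 1369 fell. Over all 45037 probe sets 1017 (2.26%) rose and 1510 (3.35%) fell with Jmjd2a. For Fos the Jmjd2c change minus the Jmjd2a change was -0.46 (95% interval -0.94 to 0.02), for Fcer2a -0.28 (-0.92 to 0.36) and for Ccnb2 0.11 (-0.16 to 0.38). Cdkn2a differed by 1.31 (0.47 to 2.14), from 4.88 and 4.55 on the Jmjd2a day 3 arrays and 4.21 and 4.07 on their day 1 arrays, and did not pass. 4930426D05Rik differed by -0.77 and did not pass. Fos, Fcer2a, Cdkn2a and 4930426D05Rik were picked for the size of their Jmjd2c change. That change enters this difference, so the choice favours values away from 0, and they are descriptions. A p that misses the threshold leaves such differences possible.

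Fits that did not carry the spread of day 3 control replicate 2 called 6 to 10 probe sets in this difference, all higher with Jmjd2c. Named after their values were seen, the 10 include Bzw2, Gm9222 and Gm3715, and the other 7 name no gene or several. Bzw2 read 8.09 and 8.09 on the Jmjd2c day 3 arrays, 7.41 and 7.55 on the Jmjd2c day 1 arrays, 7.08 and 6.96 at day 3 and 7.53 and 7.5 at day 1 with Jmjd2a, 7.22 and 9.78 in the day 3 controls and 7.43 and 7.22 in the day 1 controls. Gm9222 read 7.51 and 7.16 on the Jmjd2c day 3 arrays, 9.41 on day 3 control replicate 2 and between 4.88 and 5.54 on the other 9 arrays. All 10 were above the other 9 arrays on both Jmjd2c day 3 arrays and highest on day 3 control replicate 2. These 3 arrays also had the highest hybridisation controls of the series, at 11.09, 10.92 and 11.58, against 10.6 to 10.83 elsewhere, and the part of hybridisation in the pattern was not tested.

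The control cells changed differently between the days. Day 3 control replicate 2 read 10.73 in the 18S ribosomal probe sets, against 11.73 to 12.73 on the other arrays. The range between its lower and upper quartile was 3.08, against 3.38 to 3.63 on the others. The differences from controls given here and below include this array. The Jmjd2c day change was higher than the control day change for 4800 probe sets (10.7%) and lower for 3079 (6.84%), and the 2 changes correlated at an r of 0.07 over probe sets. Of the 1472 risen with Jmjd2c, 458 rose and 484 fell in the controls, and of the 2416 fallen, 425 fell and 575 rose. Over all probe sets 3809 (8.46%) rose and 6932 (15.4%) fell in the controls. Fcer2a, at 5.12 and 5.53 in day 3 controls and 5.23 and 5.02 in day 1 controls, was as low on both days as on the Jmjd2c day 3 arrays, and the difference of the day changes was -5.29 ± 0.29 (limma adjusted p = 1.2e-06). Vcam1 read 6.68 and 6.36 in day 3 controls against 2.93 and 3.23 in day 1 controls, opposite in direction to the Jmjd2c arrays (-8.5 ± 0.35, adjusted p = 1.5e-07). Fos read 5.8 and 5.82 in day 3 controls against 6.53 and 6.73 in day 1 controls, so that only the Jmjd2c and Jmjd2a arrays of day 1 were near 12.

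Whole lists differed too. With 1 probe set a gene, 13.1% of genes had a higher and 9.65% a lower day change with Jmjd2c than in controls (22.8% either). Of Myc targets 27 of 27 had a higher day change with Jmjd2c than in controls, with medians of 0.16 and -0.84, and of DNA replication genes 24 of 29 did, with medians of 0.28 and -0.38. All 9 MHC class II genes had a lower day change with Jmjd2c (medians -0.83 and 0.21), as did 15 of 18 macrophage markers (-2.04 and 1.05) and 8 of 8 NK cell markers (-0.74 and 1.94). The MHC class II mean level was 10.72 on both Jmjd2c day 3 arrays, 10.95 and 10.89 in day 3 controls and 10.67 and 10.66 in day 1 controls. It was 11.82 and 12.05 on the Jmjd2c day 1 arrays, so for this list the gap to the controls lay mainly at day 1. The mitosis list rose in both, with medians of 0.76 and 1.27, and 18 of 28 members rose less with Jmjd2c. For Pcp4, Rgs13 and Kdm6b, an H3 lysine 27 demethylase, the Jmjd2c arrays barely moved (0.13, 0.26 and -0.02) and the control change was -4.4, -3.32 and -3.03. In the brightest probe set of Kdm6b the Jmjd2c arrays differed by -0.12 and the controls by -1.28. The count of higher day changes was 8094 without day 3 control replicate 1 and 3224 to 5208 without any other array used, and the lower count 4818 and 2137 to 4340.

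**Figure D5:**
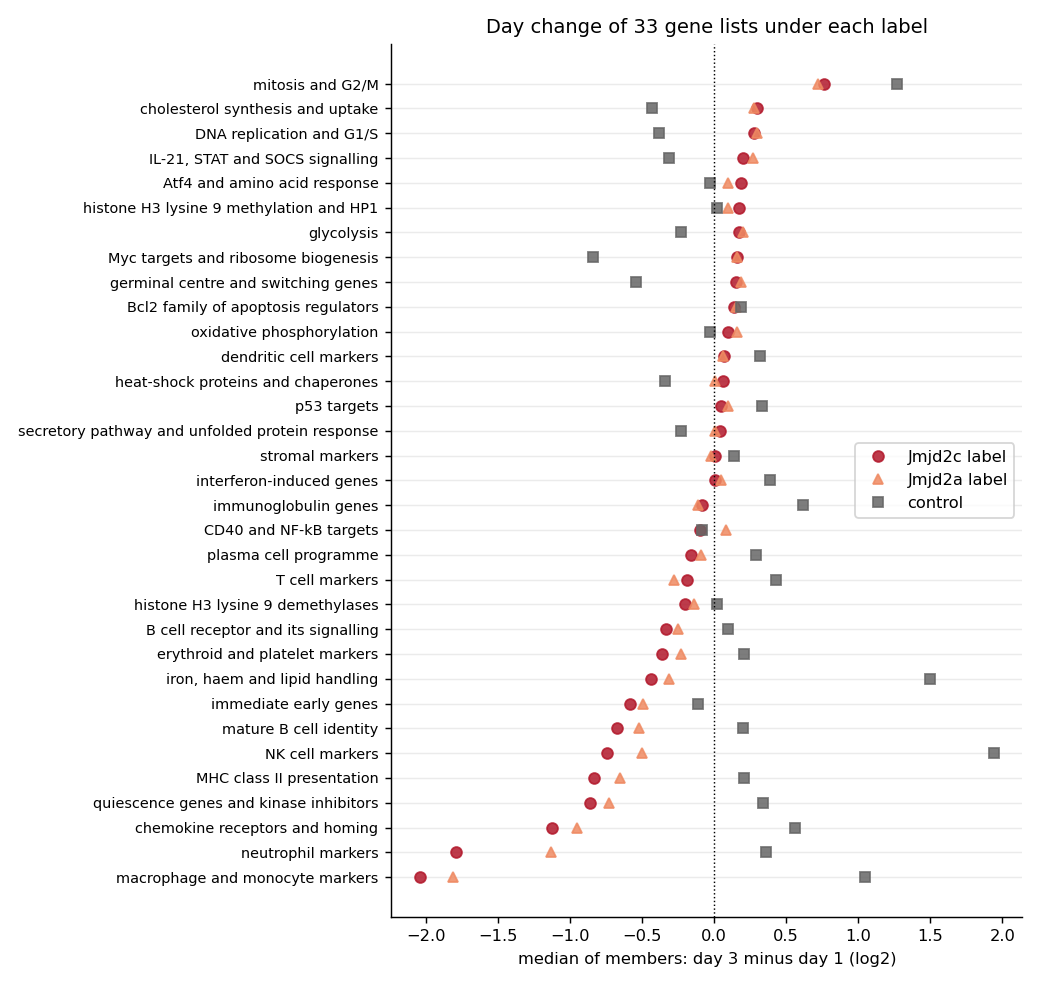
Median difference between day 3 and day 1 (log2, horizontal axis) of the members of 33 gene lists for the Jmjd2c label (circles), the Jmjd2a label (triangles) and the controls (squares). For mature B cell identity the circle lies at -0.67 and the triangle at -0.52, and squares lie on the other side of 0 for MHC class II (0.21), homing (0.56) and macrophage markers (1.05), while all 3 lie above 0 for mitosis.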

How the data were processed

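Total RNA from 12 B cell samples was labelled as biotin cRNA and hybridised to Affymetrix mouse genome arrays, per the labels' protocols. The values are log2 levels that the authors deposited, 1 for each of 45101 probe sets and sample. Their background correction, normalization and software are not given in the sources used here, so the scale could not be traced to the scans. The 64 control probe sets were left out, and 45037 remained. Of these 34945 carried 1 gene symbol in the platform annotation, 932 several and 9160 none, and names were used only for the first kind, which covers 18193 genes. Where a gene had several probe sets, the one with the highest mean stood for it, except among the largest rises, falls and differences of day changes, which were ranked over probe sets and take the gene's probe set of largest change.

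Samples were grouped by their titles, 2 to a group. A single limma model (limma 3.58.1, R 4.3.3) with 6 group means was fitted to all 12 arrays, with a variance trend and 6 residual degrees of freedom, with the Benjamini-Hochberg adjustment taken over 45037 probe sets. The comparisons were day 3 minus day 1 with the Jmjd2c label, and that change minus the same change with Jmjd2a and in controls. Intervals are at the 95% level. The number of arrays limits the precision, and no read depth applies. The procedure was tested on simulated data, which gave all arrays the same spread, taken without the day 3 controls. The wider spread of those controls was thus not simulated. Tables and plots were made with Python 3.11.15, pandas 2.3.3, numpy 2.4.6 and matplotlib 3.10.9.

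Named genes are the targeted genes and those of the study's question, the 15 largest rises and falls among genes that passed, did not overlap and lay above the median level, up to 4 passing members of smallest p and the cell markers of each list, and the 8 largest in each direction of each difference of day changes. The members and the gene lists were chosen with earlier results of these data known. Alternatives covered normalization, centring, dim probe sets, the variance prior, array weights, thresholds, the samples fitted, the choice of probe set, a replicate block and leaving out each array. Same-numbered replicates of the 2 Jmjd2c groups deviated with a correlation of -0.045, and those of the Jmjd2c and Jmjd2a groups of day 1 with 0.392. With 2 replicates a group and no label that ties the numbers together, they were not used as pairs.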

Additional observations from a re-analysis of the deposited data

Results flagged for a closer look

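Between the days the Jmjd2c-labelled cells and the controls changed differently by the limma test of the difference itself, in which 4800 probe sets had a higher and 3079 a lower day change with Jmjd2c than in controls. All values here are the Jmjd2c day change minus the control day change, on the log2 scale.

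Among the genes of the study's question the difference was positive for Sdc1 (1.58), Ccnd2 (1.2), Myc (0.68), Wdr5 (0.63) and Bach2 (0.6). It was negative for Jchain (-1.9), Cdkn1b (-1.48), Cdkn3 (-1.13), Xbp1 (-0.75), Irf4 (-0.7), Mki67 (-0.66) and Kdm4a (-0.4). The Kdm4a difference did not pass in most fits without 1 array.

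The largest positive differences were those of Pcp4 (4.53), Rgs13 (3.58), Pigr (3.35), Serpinb1a (3.01), Kdm6b (3.01), Xrcc5 (2.8), Maf (2.71) and 2010204K13Rik (2.69). Pcp4 read 8.5 and 8.59 at day 3 and 8.43 and 8.41 at day 1 with the Jmjd2c label, against 4.03 and 4.78 at day 3 and 8.76 and 8.86 at day 1 in controls, so the gap lay in the day 3 controls. Pigr, Serpinb1a and Kdm6b are given by their probe set of largest difference, and their brightest probe sets differed by 3.04, 2.68 and 1.16. The largest negative differences were those of Vcam1 (-8.5), C1qb (-7.65), Slc40a1 (-6.26), Csf1r (-5.91), Mrc1 (-5.81), Gzma (-5.45), Gpr34 (-5.43) and C1qa (-5.41), of which Vcam1, C1qb, Csf1r, Mrc1 and C1qa are macrophage markers and Gzma an NK cell marker. The brightest probe set of C1qb differed by -4.74.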

How the results depend on the processing

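The arrays limit these results to 2 a group, and the shared estimate of the spread includes the widely spaced day 3 controls. For day 3 against day 1 with the Jmjd2c label, 1472 probe sets rose and 2416 fell. The number that rose was 2381 with quantile normalization, 835 without a variance trend, 3472 with array weights, 2380 at an adjusted p under 0.10, 30 past a floor of 1.5-fold, 2493 with only the 4 arrays of the contrast, 3617 without the day 3 controls, 3611 without day 3 control replicate 2 and 2531 without Jmjd2c day 1 replicate 2 and day 3 control replicate 2, a choice made after seeing the data. The number that fell was 4007 with array weights, 1424 with 1 probe set a gene, 362 past the floor, 4028 without the day 3 controls, 4032 without day 3 control replicate 2 and 3667 without the 2 arrays. Without 1 Jmjd2c array it ranged from 301 to 650 risen and from 1101 to 1704 fallen. The Jmjd2c minus Jmjd2a day change had 6 probe sets higher with only the groups of the contrast, 10 without the day 3 controls and 10 without day 3 control replicate 2. The Jmjd2c minus control day change had 2601 higher and 1960 lower with 1 probe set a gene and 507 higher and 761 lower past the floor. Without 1 array it had 3224 to 8094 higher and 2137 to 4818 lower, the highest without day 3 control replicate 1. With the replicate block, a number that names samples without pairing them, 1455 rose and 2581 fell with the Jmjd2c label, and 4819 were higher and 3165 lower than in controls. Of the values of single genes for day 3 against day 1 over the alternatives, 2230 kept direction and side of the threshold, 256 fell short of it, 19 newly passed it and 6 turned their sign. Over all 3 comparisons 44 values of 21 results turned their sign, none of them past the test in either setting. For day 3 against day 1, leaving out 1 array gave -0.03 to 0.12 for Xbp1, -0.15 to 0.1 for Pax5 and -0.04 to 0.03 for Bach2, and quantile normalization 0.09 for Pax5. For the Jmjd2c minus control day change it gave -0.36 to 0.04 for Kdm4c, -0.16 to 0.31 for Prdm1, -0.03 to 0.22 for Pax5 and -0.43 to 0.02 for Cdkn2c. For the Jmjd2c minus Jmjd2a day change it gave -0.2 to 0.19 for Prdm1, -0.25 to 0.04 for Irf4, -0.04 to 0.12 for Xbp1, -0.08 to 0.19 for Sdc1, -0.39 to 0.21 for Jchain, -0.18 to 0.24 for Pax5, -0.11 to 0.1 for Bcl6, -0.03 to 0.05 for Ccnd2, -0.24 to 0.12 for Cdkn1b, -0.26 to 0.03 for Cdkn2c, -0.17 to 0.06 for Cdkn3, -0.01 to 0.1 for Wdr5 and -0.0 to 0.03 for Nfkbia. In that comparison quantile normalization gave 0.01 for Kdm4c, 0.07 for Prdm1, 0.06 for Bcl6 and 0.02 for Cdkn3, and centring gave -0.01 for Ccnd2 and -0.0 for Nfkbia. The causes were not tested.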
